A study of Mus musculus with 23 samples.

Results

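Hippocampal RNA of mice on an ethanol liquid diet (EtOH group) was compared with that of mice on a control liquid diet (Ctrl group). The comparison used the 7 EtOH and 9 Ctrl libraries, 16 of the 23 libraries of the series, and was defined by the column names of the deposited expression table. The 7 EtOH-UA mice, which received urolithin A with the ethanol diet, were not used except in 1 alternative fit. All mice were wild-type male C57BL/6J mice, 6 weeks old at the start. Ctrl mice had AIN93M control liquid diet and EtOH mice AIN93M ethanol liquid diet, and both groups were gavaged each day with the CMC-Na vehicle. The diets lasted 16 weeks and were followed by 1 week of behavioural testing, so all mice had been through the tests before the tissue was taken. Of 19733 genes in the table, the 12907 with a mean of at least 1 FPKM over the 16 mice were tested. FPKM counts sequenced fragments after division by the transcript's length and by the library's total. Differences are given as EtOH minus Ctrl on the log2(FPKM + 0.1) scale, which understates the change of low genes. The question was which genes of the hippocampus differ in level under long ethanol intake.

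The hippocampus holds excitatory pyramidal and granule neurons, inhibitory interneurons and glia, and it lies against the lateral ventricle. The ventricle wall is lined by ependymal cells, whose beating cilia move the cerebrospinal fluid, and the choroid plexus inside the ventricle secretes that fluid and transthyretin. Ethanol acts on GABA-A and NMDA receptors and on several potassium channels, and long intake has been linked to changes in stress, immune and circadian genes. The circadian clock is a loop in which CLOCK and BMAL1 bind E-boxes and drive their own repressors together with output genes such as Dbp.

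Summed FPKM per library ran from 330456 to 361354 in Ctrl and from 327896 to 366930 in EtOH mice. It was above 350000 in 4 libraries, Ctrl mice 1, 6 and 9 and EtOH mouse 3, numbered in the order of the table's columns. Read depth could be read only from the steps between low FPKM values. By 113 such genes the relative depth was between 0.983 and 1 in 15 libraries, and Ctrl mouse 9 was at a relative depth of 0.909. Each library rested on 24 to 41 genes and on rounded values as low as 0.1 FPKM. Small differences in depth could therefore not be seen. By 48 genes with 1 annotated transcript, 1 FPKM on a transcript of 1 kilobase was a median of 15.6 fragments (quartiles 7.24 and 16.7), so counting error is large for genes near 1 FPKM. This estimate is rough, because it takes the lowest step of each gene as 1 fragment and uses the full annotated length. Neither assumption was tested. All 24 markers of hippocampal subfields were above 0 in every mouse, and 23 were tested. Pcp4, a marker of area CA2, was at 143 ± 23.3 FPKM (SD, n = 9) in Ctrl and 137 ± 16.1 FPKM (SD, n = 7) in EtOH mice. Mpped1, a marker of area CA1, was at 66.9 ± 11.8 and 61.1 ± 6.57 FPKM, and C1ql3, of granule and pyramidal neurons, at 62.9 ± 10.7 and 61.6 ± 6.26 FPKM. Summed markers of the subfields were between 579 and 682 FPKM in Ctrl and between 602 and 663 FPKM in EtOH mice.

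No gene passed an adjusted p of 0.05 by limma (0 of 12907, 0% of genes tested), and in none were the 7 EtOH mice all above or all below the 9 Ctrl mice (0%). The smallest adjusted p was 0.382, that of Cd24a. An unadjusted p under 0.05 was reached by 355 genes, 2.75% of those tested. With no difference between groups a share of 0.05 would reach it on average, so the count was below that. Of the 355 genes, 180 (1.39%) were higher and 175 (1.36%) lower in EtOH mice. These 2 shares are the background for the counts of each gene list below. The lists were chosen with earlier results of these data known, and genes of a list can vary together. Counts above these shares therefore describe the lists and are no test of them. The median log2 fold change of all genes tested was -0.01, with 5974 genes higher and 6933 lower. The count depended on EtOH mouse 3: without it 1317 genes reached an unadjusted p under 0.05, and still 0 passed the adjusted threshold. It was 614 without Ctrl mouse 3 and 197 without EtOH mouse 7. Under quantile normalization the split was 144 higher to 235 lower, where the scaling as deposited gave 180 to 175.

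**Figure D1:**
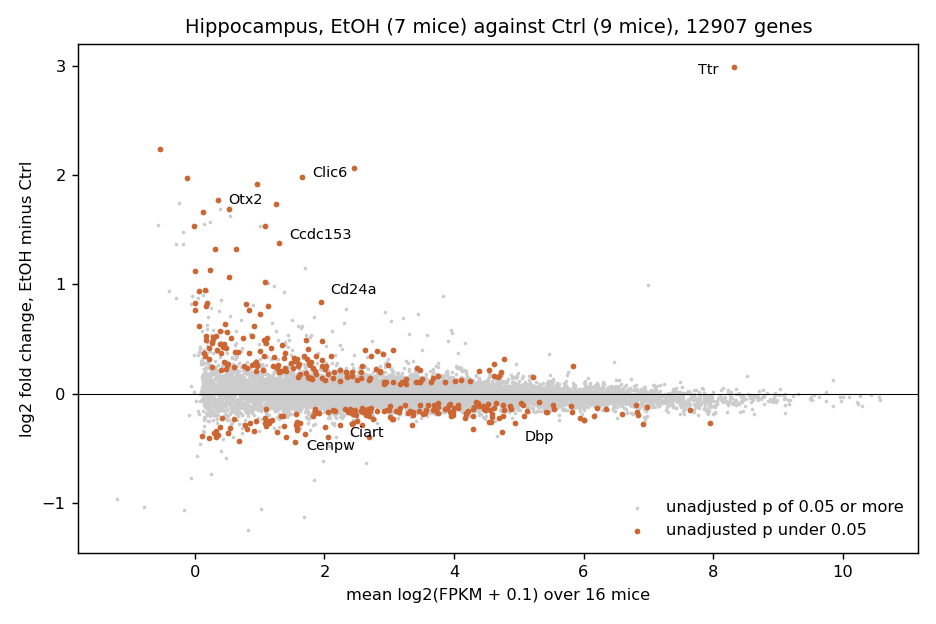
Each point is 1 of 12907 genes, with its mean level over the 16 mice as log2(FPKM + 0.1) on the x axis and its log2 fold change (EtOH minus Ctrl) on the y axis. Orange points are the 355 genes at an unadjusted p under 0.05, and the orange points that lie farthest from 0 are genes higher in EtOH mice, such as Ttr at 2.99.

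Cd24a encodes a small membrane glycoprotein of immature neurons and ependymal cells. The gene (gene ID 12484) lies on chromosome 10 of GRCm38 from 43579169 to 43584265. It was lowest at 2.02, median 2.81 and highest 4.16 FPKM in Ctrl mice, against 3.85, 5.68 and 6.52 FPKM in EtOH mice. The 2 groups overlapped only in that EtOH mice 3 and 4, at 3.85 and 3.87 FPKM, were below Ctrl mouse 4 at 4.16 FPKM. The other 5 EtOH mice were above every Ctrl mouse. The log2 fold change was 0.84 (95% interval 0.52 to 1.16), with an adjusted p of 0.382 by limma. The exact permutation test of the difference of mean log2 values, two-sided and over all 11440 ways to divide the 16 mice, gave a p of 0.000787. The permutation p-values here and below are not adjusted for the number of genes tested. For a gene named because its limma p was small, the permutation p reuses the same values and is no separate support. Cd24a alone passed the adjusted threshold under 3 alternatives, with array quality weights (adjusted p of 0.0389 by limma) and with summed FPKM (0.0199) or the ribosomal protein score (0.0303) as a covariate. Both covariates were chosen after seeing the data. With 1 mouse left out its adjusted p by limma ran from 0.117 to 0.9998, and it was above 0.99 without Ctrl mouse 1 or 6 or EtOH mouse 1, 2, 6 or 7. With the score of ependymal markers as a covariate its log2 fold change was 0.43 (adjusted p of 0.992 by limma).

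Among the 12 genes with the smallest p that were higher in EtOH mice, Iqcg, Cfap45 and Tekt1 belong to motile cilia. Iqcg, part of the dynein regulatory complex of cilia, was at 1.03 ± 0.28 FPKM (SD, n = 9) in Ctrl and 1.56 ± 0.248 FPKM (SD, n = 7) in EtOH mice, a log2 fold change of 0.57 with a standard error (SE) of 0.14. Cfap45, which encodes a protein inside the ciliary microtubules, was at 1.19 ± 0.305 and 1.69 ± 0.118 FPKM (log2 fold change 0.51, SE 0.13). Tekt1, a tektin of the same structures, had a log2 fold change of 0.77 and is described with the ependymal markers, as is Rarres2. 1110017D15Rik and LOC115488002, whose roles are not described here, had log2 fold changes of 0.80 and 0.62. Rfc4, a clamp loader of DNA replication, was at 1.7 ± 0.315 and 2.23 ± 0.193 FPKM, a log2 fold change of 0.39. Tmem39a, a membrane protein of the endoplasmic reticulum, differed by 0.23 at the higher level of 3.66 ± 0.325 and 4.29 ± 0.227 FPKM. Vgll3, a cofactor of TEAD transcription factors, differed by 0.80, Zfp931, a zinc finger gene, by 0.34, and Gm973 by 0.34. Vgll3 was at 0.829 ± 0.31 FPKM in Ctrl and 1.5 ± 0.432 FPKM in EtOH mice and passed the filter at 1 FPKM only through the EtOH mice. All of these had an adjusted p of 0.995 by limma. All 7 EtOH mice were above the Ctrl median for 10 of the 12 genes, and 6 of 7 for Vgll3 and Zfp931.

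The markers of ependymal cells were higher in EtOH mice. Of 18 listed, 10 passed the filter, and all 10 were higher, 9 at an unadjusted p under 0.05 by limma against 1.39% of all genes. Their median log2 fold change was 0.75, beside -0.01 for all genes. The members were chosen with earlier results of these data known and belong to 1 cell type, so the 9 are not independent calls. These genes are low, so that a member could pass the filter through the group in which it is high, and the 8 others were under 1 FPKM on average. Windows of Ccdc153 and Tekt1 are shown because both are cilium genes of this list whose 300-base windows, from 250 bases before to 50 after a start listed in RefSeq, hold the letters GTTGCC, the half-site of RFX factors, which act on cilium genes. Capitals mark GTTGCC on either strand, and the sequences are RefSeq's on GRCm38.p6. The Ccdc153 window is at the start of the gene, and that of Tekt1 is 1 of 2 listed for it, at a start 560 bases inside the gene's outer end.
Ccdc153 window, chr9:44240427-44240726, plus strand: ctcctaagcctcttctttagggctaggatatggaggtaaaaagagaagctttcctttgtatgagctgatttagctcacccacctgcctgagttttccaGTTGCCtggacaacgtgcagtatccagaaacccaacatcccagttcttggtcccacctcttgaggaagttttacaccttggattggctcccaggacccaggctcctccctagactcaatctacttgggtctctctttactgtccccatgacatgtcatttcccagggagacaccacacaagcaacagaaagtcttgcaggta
Tekt1 window, chr11:72361833-72362132, minus strand: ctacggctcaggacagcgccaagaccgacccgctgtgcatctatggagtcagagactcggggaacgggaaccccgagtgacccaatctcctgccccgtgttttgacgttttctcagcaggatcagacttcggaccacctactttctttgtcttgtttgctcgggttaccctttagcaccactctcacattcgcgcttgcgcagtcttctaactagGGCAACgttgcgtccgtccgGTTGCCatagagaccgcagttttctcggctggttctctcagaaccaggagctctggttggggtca
GTTGCC or its reverse complement GGCAAC occurred in the windows of 3 of the 6 tested ependymal genes with a RefSeq window (Ccdc153, Mlf1 and Tekt1), of 5 of 14 among all listed with one, and of 14.1% of the 27025 genes that have 1 or more windows. A match is a string of letters and no measure of binding.

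Ccdc153, a coiled-coil gene of ciliated cells (gene ID 270150, chromosome 9 of GRCm38, 44240677 to 44247306), was lowest at 0.3, median 1.52 and highest 4.28 FPKM in Ctrl mice. In EtOH mice it was at 2.25, 4.12 and 7.81 FPKM, and 2 of 7 EtOH mice were above every Ctrl mouse. Its log2 fold change was 1.38 (95% interval 0.53 to 2.23). Tekt1 (21689, chromosome 11, 72344717 to 72362442) was lowest at 0.69, median 1.23 and highest 2.4 FPKM in Ctrl and at 1.71, 2.14 and 3.98 FPKM in EtOH mice. The groups of Tekt1 overlapped through Ctrl mice 3 and 8, which were above the lowest EtOH mouse. Rarres2, which encodes the chemoattractant chemerin (71660, chromosome 6, 48569696 to 48572845), is the most abundant of the list. It was lowest at 4.36, median 5.23 and highest 6.98 FPKM in Ctrl and at 5.52, 7.04 and 10 FPKM in EtOH mice, a log2 fold change of 0.40 (SE 0.11). Tmem212, a membrane protein of ciliated cells, was at 0.998 ± 0.756 and 2.06 ± 0.711 FPKM, a log2 fold change of 1.32. With a Ctrl mean under 1 FPKM, it passed the filter only through the EtOH mice. Foxj1, the transcription factor that directs motile cilia, was named for that role after its values were seen. It was at 1.68 ± 0.79 and 2.7 ± 0.901 FPKM, a difference of 0.73. Rsph1, of the radial spokes, was at 2.82 ± 0.862 and 4.02 ± 1.26 FPKM, a difference of 0.49. Dnah9, a dynein heavy chain, was the member with the smallest difference, 0.09. The adjusted p was 0.995 by limma for each of them, and the exact permutation p was 0.00909 for Ccdc153, 0.00472 for Tekt1, 0.00455 for Rarres2 and 0.0188 for Tmem212.

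The summed level of the 18 ependymal markers was between 14.9 and 35 FPKM in Ctrl mice (median 20.4) and between 27.1 and 49.9 FPKM in EtOH mice (median 33.9), and no marker was at 0 in any mouse. A score was formed for the list as the mean log2 deviation of its 10 tested members from their averages over all 16 mice. This score had a mean of -0.35 in Ctrl (SD 0.57, n = 9) and of 0.44 in EtOH mice (SD 0.29, n = 7). The lowest 3 scores were those of Ctrl mice 9, 1 and 6, at -1.21, -0.93 and -0.87, which are also 3 of the 4 libraries with a summed FPKM above 350000. Without these 4 libraries the median of the list was 0.50 and 6 of 10 members were at an unadjusted p under 0.05, all 10 still higher. Under upper-quartile, quantile and median-ratio scaling 9 of 10 members were at this threshold and all 10 were higher. In bulk RNA, more cells of a type and more RNA per cell cannot be told apart.

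**Figure D2:**
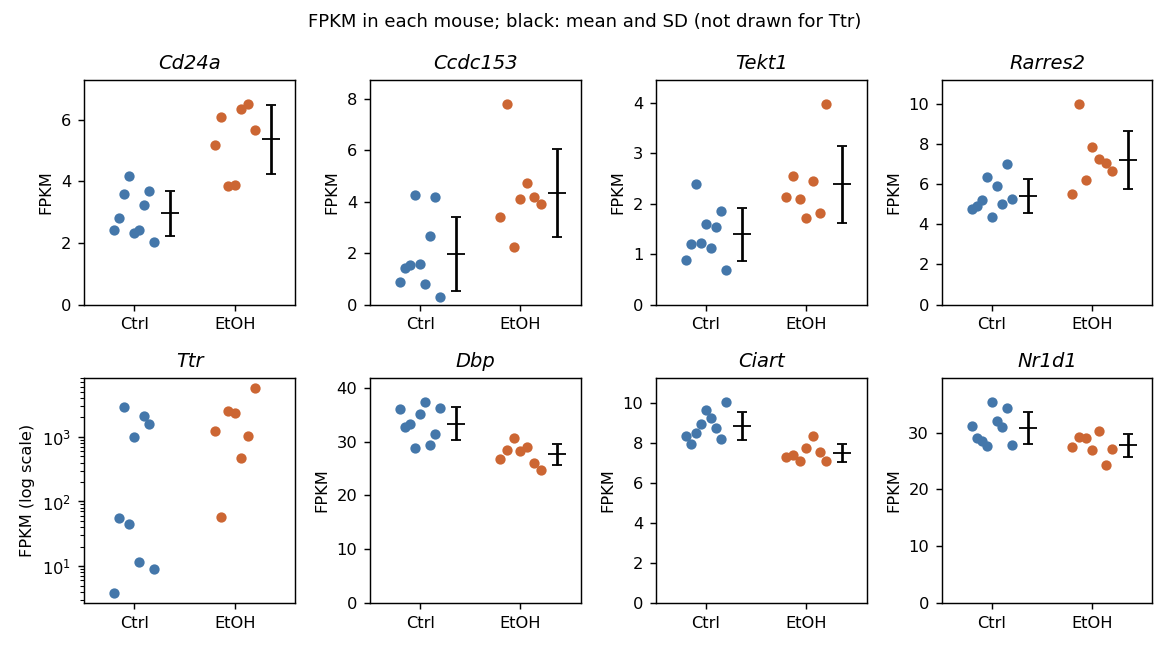
FPKM of 8 genes in each of the 9 Ctrl (blue) and 7 EtOH (orange) mice, with the mean and SD in black except for Ttr, whose y axis is logarithmic. Cd24a sits between 2.02 and 4.16 FPKM in Ctrl and between 3.85 and 6.52 FPKM in EtOH mice, and Ciart between 7.93 and 10.03 and between 7.09 and 8.32 FPKM.

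Of all gene lists, the choroid plexus list had the largest median difference, with wide spread between mice in both groups. All 18 listed were tested and above 0 in every mouse, and all 18 were higher in EtOH mice with a median log2 fold change of 1.56. Of these, 5 were at an unadjusted p under 0.05 by limma, against 1.39% of all genes. Ttr, transthyretin, was lowest at 3.88, median 56.1 and highest 2914 FPKM in Ctrl mice, against 58.4, 1249 and 5628 FPKM in EtOH mice. The Ctrl mice lay in 2 ranges, 5 mice at or under 56.1 and 4 mice at or above 981 FPKM, and EtOH mouse 2, at 58.4 FPKM, was near the lower range while the other 6 were at or above 470 FPKM. The log2 fold change of Ttr was 2.99 (95% interval 0.04 to 5.94, adjusted p of 0.995 by limma, exact permutation p of 0.0829). Clic6, an intracellular chloride channel protein, had a log2 fold change of 1.98 (exact permutation p of 0.0491), Folr1, the folate receptor, of 1.92 (0.0729), Otx2, a transcription factor of the plexus, of 1.77 (0.0637), and Calml4, a calmodulin-like gene, of 1.73 (0.0389). Of the most abundant members beside Ttr, Enpp2, autotaxin, was at 143 ± 130.4 FPKM (SD, n = 9) and 256 ± 263 FPKM (SD, n = 7), and Kl, klotho, at 9.38 ± 7.03 and 15.0 ± 13.4 FPKM. Outside the list, Ecrg4, a secreted peptide precursor of the plexus, had a log2 fold change of 2.07, Steap1, a metalloreductase family member, of 1.97, and Defb11, a beta-defensin that passed the filter only through the EtOH mice, of 2.24.

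The summed choroid plexus markers ran from 42.4 to 3410 FPKM in Ctrl mice (median 119) and from 138 to 6711 FPKM in EtOH mice (median 1504). The first principal component of the 16 mice, 32.3% of the variance, was led by Ttr, Ecrg4, Kcnj13 and Folr1. Leaving out the 4 libraries of high summed FPKM lowered the median of the list to 0.53, and 0 of its 18 members were then at an unadjusted p under 0.05. The count of 5 turned on single mice. It was 16 without EtOH mouse 2 or Ctrl mouse 3, 12 without Ctrl mouse 7, 10 without Ctrl mouse 8 and 8 without Ctrl mouse 5. It was 3 without Ctrl mouse 4, EtOH mouse 1 or EtOH mouse 4, 2 without Ctrl mouse 1, 2, 6 or 9 or EtOH mouse 3, and 1 without EtOH mouse 7. With the choroid plexus score as a covariate the ependymal list kept a median of 0.45, all 10 members higher and 5 at an unadjusted p under 0.05. With the ependymal score as a covariate the choroid plexus list had a median of -0.29. Whether the amount of ventricular wall and choroid plexus in the dissected piece differed between groups was not tested.

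**Figure D3:**
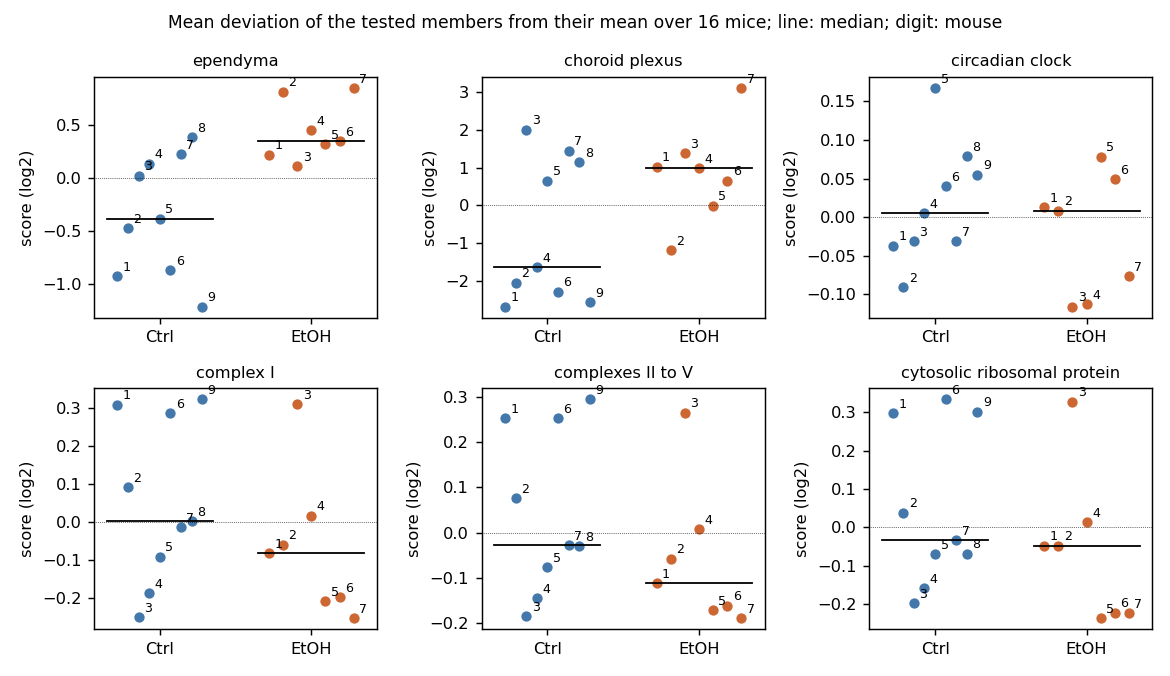
Score of 6 gene lists in each mouse, the mean deviation of the tested members from their means over 16 mice on the log2 scale, with the group median as a line and the mouse number beside each point. The 7 EtOH mice are between 0.11 and 0.85 for the ependymal score, where Ctrl mice are between -1.21 and 0.38, and EtOH mouse 3 is the highest EtOH mouse for complex I, complexes II to V and ribosomal proteins.

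Among the genes lower in EtOH mice, Dbp and Ciart, both clock genes, had the smallest p. Of 18 clock genes, all tested, 5 were lower at an unadjusted p under 0.05 (against 1.36% of all genes), 0 were higher at this threshold, and the median log2 fold change of the list was -0.02. The 5 are Dbp, Ciart, Nr1d1, Bhlhe41 and Bhlhe40. The promoters of Ciart and Bhlhe41 are shown because their windows hold the canonical E-box CACGTG, which CLOCK and BMAL1 bind. Capitals mark each CACGTG, which reads the same on both strands.
Ciart promoter, chr3:95882179-95882478, minus strand: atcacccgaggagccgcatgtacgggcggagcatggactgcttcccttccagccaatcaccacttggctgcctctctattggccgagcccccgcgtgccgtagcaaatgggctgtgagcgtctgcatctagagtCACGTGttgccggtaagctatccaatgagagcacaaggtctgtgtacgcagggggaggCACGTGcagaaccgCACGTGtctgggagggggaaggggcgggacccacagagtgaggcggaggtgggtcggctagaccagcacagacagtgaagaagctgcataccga
Bhlhe41 promoter, chr6:145865371-145865670, minus strand: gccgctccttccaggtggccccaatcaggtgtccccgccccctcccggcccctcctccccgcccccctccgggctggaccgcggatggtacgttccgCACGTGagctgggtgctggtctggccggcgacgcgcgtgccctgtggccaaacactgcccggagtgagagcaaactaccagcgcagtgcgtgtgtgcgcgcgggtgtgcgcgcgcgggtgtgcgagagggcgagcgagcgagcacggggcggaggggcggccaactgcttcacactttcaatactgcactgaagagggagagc
The Ciart window holds 3 copies and the Bhlhe41 window 1. CACGTG occurred in the windows of 5 of 16 clock genes with a RefSeq window (Bhlhe41, Ciart, Cry1, Per1 and Tef) and in those of 8.09% of the 27025 genes that have 1 or more windows. Among the 5 lower clock genes 4 have a window, and only the 2 shown hold CACGTG. Here too a match is no measure of binding.

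Dbp encodes a PAR bZIP transcription factor that drives clock-controlled output (gene ID 13170, chromosome 7 of GRCm38, 45705100 to 45710203). It was lowest at 28.8, median 33.4 and highest 37.4 FPKM in Ctrl mice, against 24.7, 28.3 and 30.6 FPKM in EtOH mice. Of the 7 EtOH mice 5 were below every Ctrl mouse. The log2 fold change was -0.27 (95% interval -0.39 to -0.14, adjusted p of 0.995 by limma), with an exact permutation p of 0.00131. Ciart encodes a repressor of CLOCK and BMAL1 (229599, chromosome 3, 95878500 to 95882257). It was lowest at 7.93, median 8.76 and highest 10.03 FPKM in Ctrl and at 7.09, 7.38 and 8.32 FPKM in EtOH mice, where 6 of 7 were below every Ctrl mouse and EtOH mouse 5 alone overlapped. The log2 fold change was -0.24 (95% interval -0.35 to -0.12, adjusted p of 0.995 by limma), with an exact permutation p of 0.000612. Nr1d1, the nuclear receptor REV-ERB alpha, which represses Bmal1, was lowest at 27.7, median 30.95 and highest 35.4 FPKM in Ctrl and at 24.3, 27.5 and 30.3 FPKM in EtOH mice, a log2 fold change of -0.15 (exact permutation p of 0.0285). The 2 DEC repressors differed by similar amounts, Bhlhe41 from 8.32 ± 0.792 to 7.47 ± 0.47 FPKM (log2 fold change -0.15) and Bhlhe40 from 28.6 ± 2.68 to 25.8 ± 2.38 FPKM (-0.15).

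Core members of the loop, named for their role after their values were seen, were closer to 0 than the 5 genes above. Those 5 were picked by their p, so no contrast of core and output genes follows. The log2 fold change of Per1 was -0.02, of Per2 0.07, of Cry1 0.07, of Cry2 0.03, of Arntl, which encodes BMAL1, -0.01, and of Clock 0.08. Rora, an activator of Bmal1, had the highest value of the list at 0.17. Tef, the most abundant member, was at 99.0 ± 5.55 FPKM (SD, n = 9) in Ctrl and 95.3 ± 6.02 FPKM (SD, n = 7) in EtOH mice. The count of 5 lower clock genes was the same under the 3 other scalings, was 3 without the 4 libraries of high summed FPKM, and was 2 with the ependymal score as a covariate, where Dbp was at -0.11 and Ciart at -0.17. It was 3 without EtOH mouse 4 or EtOH mouse 7. The labels give no time of day at which the mice were killed, and its part in the difference was not tested.

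Of the other genes among the 12 with the smallest p that were lower, Rasip1, an endothelial regulator of vessel lumens, was at 3.21 ± 0.372 FPKM (SD, n = 9) in Ctrl and 2.52 ± 0.255 FPKM (SD, n = 7) in EtOH mice. Its log2 fold change was -0.34, 5 of 7 EtOH mice were below every Ctrl mouse, and the exact permutation p was 0.000787. Polr2k, a small subunit shared by RNA polymerases, was at 29.9 ± 3.42 and 23.7 ± 4.57 FPKM (log2 fold change -0.35). Cenpp (-0.44) and Cenpw (-0.45) encode kinetochore proteins, and Tcf19 (-0.41), which passed the filter only through the Ctrl mice, a nuclear protein of cell growth. Nupr1, a stress-induced nuclear protein, differed by -0.40, Pcdha3, a clustered protocadherin, by -0.32, and Fbll1, a fibrillarin-like gene, by -0.29. AA414768 differed by -0.25 and Zfp212, a zinc finger gene, by -0.16. Lipt2, which works in lipoate synthesis (-0.40), and Igfbp6, which binds insulin-like growth factors (-0.40), were among the 5 lower genes with the largest difference. Each of these had an adjusted p of 0.995 by limma, and in each except Igfbp6 between 2 and 5 EtOH mice were below every Ctrl mouse.

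Genes of the respiratory chain and of the ribosome were lower as whole lists by small amounts, which turned on a few libraries and on the covariate. All 36 complex I genes were lower, with a median log2 fold change of -0.12, and 1 was at an unadjusted p under 0.05. All 39 genes of complexes II to V were lower (median -0.09, 1 at this threshold), as were all 77 cytosolic ribosomal protein genes (median -0.11, 3 at this threshold), whose reads can be shared with their many pseudogenes. Of all genes tested 6933 of 12907 were lower, and 1.36% were lower at this threshold. Members of these lists varied together between libraries, so their common direction is not a set of separate results. Ndufa1, an accessory subunit of complex I, was lowest at 52.4, median 65.3 and highest 80.5 FPKM in Ctrl and at 46.5, 56.1 and 72 FPKM in EtOH mice (log2 fold change -0.23, exact permutation p of 0.0668). Cox7b, a subunit of cytochrome c oxidase, was at 119.8 ± 14.9 and 106 ± 11.8 FPKM (-0.17), and 5 of 7 EtOH mice were below every Ctrl mouse. Rps28 (-0.28), Rps29 (-0.27) and Rpl36a (-0.20) are small ribosomal proteins. The most abundant members were Ndufb9 at 166 ± 32.1 and 151 ± 26.1 FPKM, Atp5b, the catalytic subunit of ATP synthase, at 583 ± 62.1 and 559 ± 60.2 FPKM, and Rpl3 at 426 ± 56.8 and 409 ± 56.8 FPKM.

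The highest scores of these 3 lists belonged to the 4 libraries of high summed FPKM. Complex I scores were between 0.29 and 0.32 in Ctrl mice 1, 6 and 9 and in EtOH mouse 3, and at or under 0.09 in the other 12 mice. Without these 4 libraries the medians were -0.05 for complex I, -0.04 for complexes II to V and -0.04 for ribosomal proteins, with 0, 1 and 0 genes at an unadjusted p under 0.05. Without EtOH mouse 3 alone they were -0.17, -0.15 and -0.18, with 12, 16 and 27 genes. Without Ctrl mouse 3 each list had 6 genes at this threshold, and without any 1 of Ctrl mice 1, 6 and 9 each list had 0. With summed FPKM as a covariate the 3 medians were -0.018, -0.018 and -0.012, and 9 of 36, 10 of 39 and 28 of 77 genes were higher. In that fit 3, 5 and 7 genes were lower at an unadjusted p under 0.05 by limma, and 0 were higher at it. With the choroid plexus score as a covariate the medians were -0.022, -0.023 and -0.016, with 0 genes at this threshold in each list. With array quality weights the medians were -0.15, -0.13 and -0.15, with 11, 15 and 21 genes at an unadjusted p under 0.05. With the ependymal score as a covariate all 3 medians turned positive, to 0.12, 0.11 and 0.14. With quantile normalization 12 of 77 ribosomal genes, 2 of 39 and 1 of 36 were higher rather than lower, with upper-quartile scaling 1 of 77 and 1 of 36, and with median-ratio scaling 1 of 36.

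Cell type markers other than those of the ventricle gave few genes at the threshold, which 2.75% of all genes tested reached. Of 21 microglia markers, all tested, 15 were lower and 0 were at an unadjusted p under 0.05 (median -0.05). Ctss was at 50.6 ± 4.25 FPKM (SD, n = 9) in Ctrl and 49.0 ± 5.12 FPKM (SD, n = 7) in EtOH mice, and C1qa, of complement, at 28.9 ± 4.32 and 28.5 ± 4.99 FPKM. Of 16 tested astrocyte markers 1 was at the threshold, Cd44, a hyaluronan receptor, lowest at 0.55, median 0.82 and highest 1.45 FPKM in Ctrl and at 0.99, 1.36 and 1.9 FPKM in EtOH mice (log2 fold change 0.53, exact permutation p of 0.0138). Cd44, with a Ctrl mean under 1 FPKM, passed the filter only through the EtOH mice. Glul, Slc1a2 and Slc1a3, which take up and convert glutamate, were at 523 ± 36.5, 326 ± 36.3 and 169.6 ± 15.5 FPKM in Ctrl and at 519 ± 31.5, 335 ± 28.5 and 175 ± 4.57 FPKM in EtOH mice. Of 22 myelin and oligodendrocyte genes 20 were higher, 0 at the threshold, with a median of 0.08. Mbp was at 917 ± 256 and 979.6 ± 160.4 FPKM and Mobp at 93.7 ± 30.6 and 98.8 ± 16.2 FPKM.

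Among 14 tested interneuron genes, Npy, neuropeptide Y, was lowest at 38.8, median 45.3 and highest 53.7 FPKM in Ctrl and at 35.1, 39.9 and 46.2 FPKM in EtOH mice. Its log2 fold change was -0.17 (exact permutation p of 0.0406), and no other interneuron gene was at the threshold. Cck was at 223 ± 28.6 and 207 ± 33.9 FPKM and Sst at 198 ± 48.3 and 182 ± 27.0 FPKM. Of 8 tested genes of adult neurogenesis only Cd24a was at the threshold, and Dcx, doublecortin of young neurons, had a log2 fold change of 0.19 with its 2 means at 3.89 ± 0.662 and 4.54 ± 1.11 FPKM. The most abundant of that list were Bhlhe22 at 30.1 ± 4.73 and 28.6 ± 1.29 FPKM, Calb2 at 23.5 ± 4.88 and 24.9 ± 5.84 FPKM and Neurod1 at 9.55 ± 2.1 and 8.98 ± 1.14 FPKM. Endothelial and mural genes (19 tested, 14 lower, median -0.01), meningeal genes (11 tested, median 0.00) and leukocyte genes (3 of 13 tested) had 0 at the threshold. All 4 tested globin and blood genes were higher with a median of 0.27, none at the threshold, and Hbb-bs was at 41.5 ± 11.8 and 57.1 ± 24.4 FPKM, with reads that its close copies can share.

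Markers of neighbouring regions were also counted, beside the 2.75% of all genes tested that were at the threshold. Of 13 tested striatal and septal genes 1 was at the threshold, Zic2, a septal zinc finger factor, at 3.94 ± 1.18 and 4.87 ± 0.745 FPKM (log2 fold change 0.34), and 9 of the 22 listed were under the filter. Penk was at 22.8 ± 5.79 and 20.7 ± 4.6 FPKM, Ppp1r1b at 24.4 ± 2.67 and 27.2 ± 3.43 FPKM and Pde10a at 12.8 ± 0.848 and 12.8 ± 0.25 FPKM. Of 10 tested thalamic and habenular genes 9 were higher (median 0.11), and of 11 tested neocortical genes 8 were lower (median -0.12), 0 at the threshold in either. Among these, Prkcd was at 7.29 ± 2.29 and 8.74 ± 2.13 FPKM, Nwd2 at 5.94 ± 0.646 and 6.36 ± 0.714 FPKM, Hs3st4 at 41.8 ± 3.52 and 40.4 ± 4.21 FPKM, Etv1 at 28.8 ± 5.45 and 28.9 ± 3.27 FPKM and Lamp5 at 18.3 ± 3.19 and 16.7 ± 1.76 FPKM. The part of dissection borders in any other difference was not tested.

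**Figure D4:**
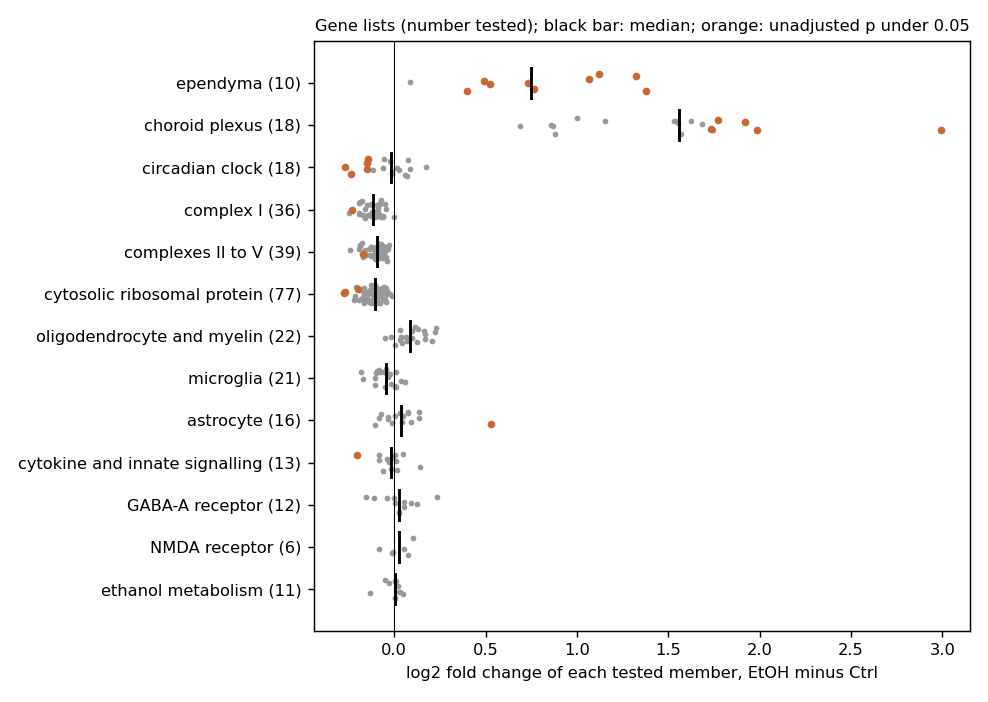
Log2 fold change (EtOH minus Ctrl, x axis) of each tested member of 13 gene lists, with the number tested beside the name, the median as a black bar and members at an unadjusted p under 0.05 in orange. Ependymal and choroid plexus genes lie to the right of 0 with medians of 0.75 and 1.56, and the medians of the other lists lie between -0.12 and 0.08.

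Direct targets of ethanol and the enzymes that clear it had no gene at an unadjusted p under 0.05 by limma. Only 2.75% of all genes tested were at this threshold, so 0 in lists of this size does not set them apart. Of 12 tested GABA-A receptor subunits 8 were higher (median 0.03), of 6 NMDA receptor genes 3 (median 0.02), of 11 AMPA, kainate and delta receptor genes 7 (median 0.02), and of 12 ethanol-sensitive potassium channels 3 (median -0.04). Grin1 was at 113 ± 4.25 FPKM (SD, n = 9) in Ctrl and 107 ± 7.55 FPKM (SD, n = 7) in EtOH mice. Of the 7 EtOH mice 5 were below every Ctrl mouse for Grin1, the subunit shared by NMDA receptors, and 1 was above, a log2 fold change of -0.09 with an adjusted p of 0.995 by limma and an exact permutation p of 0.0466. Gria1 was at 212 ± 20.01 and 216 ± 12.5 FPKM and Kcnj3, a GIRK channel, at 48.8 ± 5.48 and 47.4 ± 4.8 FPKM. Of 17 genes of ethanol metabolism 11 were tested, 8 of them higher with a median of 0.01, and Aldh2, the mitochondrial acetaldehyde dehydrogenase, was at 30.02 ± 2.33 and 30.2 ± 2.81 FPKM. GABA synthesis and uptake (8 tested), synaptic scaffold and vesicle genes (32), dopamine and adenosine genes (13), opioid genes (5), endocannabinoid genes (11) and neurotrophin genes (9) also had 0 at the threshold, with medians between -0.03 and 0.02. Their most abundant members were Gad1 at 101 ± 6.94 and 102 ± 10.5 FPKM, Snap25 at 1115 ± 56.4 and 1087 ± 42.2 FPKM, Adora1 at 49.8 ± 4.14 and 47.9 ± 4.71 FPKM, Abhd12 at 129.7 ± 7.79 and 124 ± 14.1 FPKM, and Sort1 at 112 ± 8.04 and 115 ± 2.86 FPKM.

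Stress, immune and activity genes gave 5 genes at the threshold, all lower, with 0 to 2 in each list. Of all genes tested 2.75% were at this threshold in either direction and 1.36% were lower at it. The 5 are too few to set these lists apart from that share. Il18, an inflammasome cytokine, was lowest at 13.4, median 17.3 and highest 19.1 FPKM in Ctrl and at 11.6, 14.9 and 15.8 FPKM in EtOH mice, a log2 fold change of -0.20 (exact permutation p of 0.0157). All 7 EtOH mice were below the Ctrl median. It was 1 of 13 tested of 28 cytokine and innate genes, of which 15 were under the filter, and Hmgb1 was the most abundant at 93.5 ± 5.94 and 93.7 ± 3.1 FPKM. Mt1, metallothionein, was at 211 ± 18.9 and 189 ± 15.5 FPKM (log2 fold change -0.15, exact permutation p of 0.0307), the only one at the threshold of 26 antioxidant genes, of which 20 were lower. Of 23 tested genes of endoplasmic reticulum stress, Chac1, a glutathione-degrading enzyme of the ATF4 response, was at 2.79 ± 0.506 and 2.22 ± 0.232 FPKM (-0.30), and Asns, asparagine synthetase of the same response, at 48.9 ± 4.18 and 44.3 ± 4.12 FPKM (-0.14). Of 20 tested immediate early genes, Fosb was lowest at 1.06, median 1.37 and highest 1.57 FPKM in Ctrl and at 0.99, 1.18 and 1.24 FPKM in EtOH mice (-0.23, exact permutation p of 0.0106). Jun, the most abundant of that list, was at 30.4 ± 3.94 and 30.1 ± 2.48 FPKM, Mt3 at 246 ± 40.3 and 224 ± 43.3 FPKM and Calr at 166 ± 11.2 and 169 ± 16.1 FPKM. Stress hormone (19 tested), interferon and MHC class I (16), heat shock (14), cholesterol (23), amyloid and tau (14) and RAP1 (16) genes had 0 at the threshold, with medians between -0.04 and 0.02. Their most abundant members were Tsc22d1 at 191 ± 12.4 and 181 ± 10.5 FPKM, B2m at 74.1 ± 9.29 and 70.1 ± 8.15 FPKM, Hsp90ab1 at 756 ± 39.0 and 751 ± 69.0 FPKM, Apoe at 1042 ± 100.2 and 1022 ± 139.9 FPKM and Rapgef4 at 158 ± 13.2 and 154 ± 16.5 FPKM.

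A selection of the genes that had been assayed singly elsewhere in the study, as mRNA by qRT-PCR or as protein, was also looked up in the libraries. Of the 19 genes selected, 14 were tested, and 0 were at an unadjusted p under 0.05 by limma, with log2 fold changes between -0.18 and 0.10. The share over all genes tested was 2.75%, so 0 of 14 does not set these genes apart. Dlg4, the scaffold PSD-95 of excitatory synapses, was lowest at 193.6, median 205.6 and highest 220.3 FPKM in Ctrl and at 180.3, 200.8 and 233.5 FPKM in EtOH mice. Its log2 fold change was -0.03 (95% interval -0.14 to 0.08). Gria2, the AMPA receptor subunit, and Grin2b, the NMDA receptor subunit, had log2 fold changes of 0.10 (95% interval -0.07 to 0.27) and 0.10 (-0.09 to 0.29). Fxr1, an RNA-binding protein, was at 31.9 ± 0.957 FPKM (SD, n = 9) and 32.8 ± 0.685 FPKM (SD, n = 7), with 4 of 7 EtOH mice above every Ctrl mouse, a log2 fold change of 0.04 (-0.03 to 0.11) and an exact permutation p of 0.0539. Its relative Fxr2 differed by -0.03 (-0.15 to 0.09) and Tdp2, a DNA repair phosphodiesterase, by -0.03 (-0.15 to 0.09). App, the amyloid precursor, was at 498 ± 22.7 and 498 ± 16.8 FPKM, a log2 fold change of 0.00 (-0.09 to 0.09).

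For Bdnf, the neurotrophin, the log2 fold change was -0.01 (95% interval -0.23 to 0.21). Aif1, which encodes the microglial protein IBA1, was lowest at 3.37, median 4.82 and highest 7.58 FPKM in Ctrl and at 2.74, 4.44 and 5.96 FPKM in EtOH mice, a log2 fold change of -0.18 (-0.54 to 0.18). Fyb, an adaptor of immune cells, differed by -0.09 (-0.31 to 0.13), Cnr1, the cannabinoid receptor CB1, by -0.01 (-0.17 to 0.16), Rap1a, a small GTPase, by -0.09 (-0.25 to 0.06) and Rap1b by 0.00 (-0.13 to 0.13). Below the filter, Drd2, the dopamine D2 receptor, was lowest at 0.51, median 0.69 and highest 0.97 FPKM in Ctrl and at 0.48, 0.58 and 0.67 FPKM in EtOH mice (exact permutation p of 0.14), all 7 EtOH mice below the Ctrl median. The cytokine Il1b had a median of 0.13 FPKM in both groups (exact permutation p of 0.55), and Lpar3, a lysophosphatidic acid receptor, had medians of 0.12 and 0.15 FPKM (0.158). Tnf had a median of 0.04 FPKM and a highest value of 0.12 FPKM in Ctrl and 0 and 0.03 FPKM in EtOH mice (exact permutation p of 0.0545). Il10 was above 0 in 1 Ctrl mouse, at 0.04 FPKM. At such levels counting error is large.

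**Figure D5:**
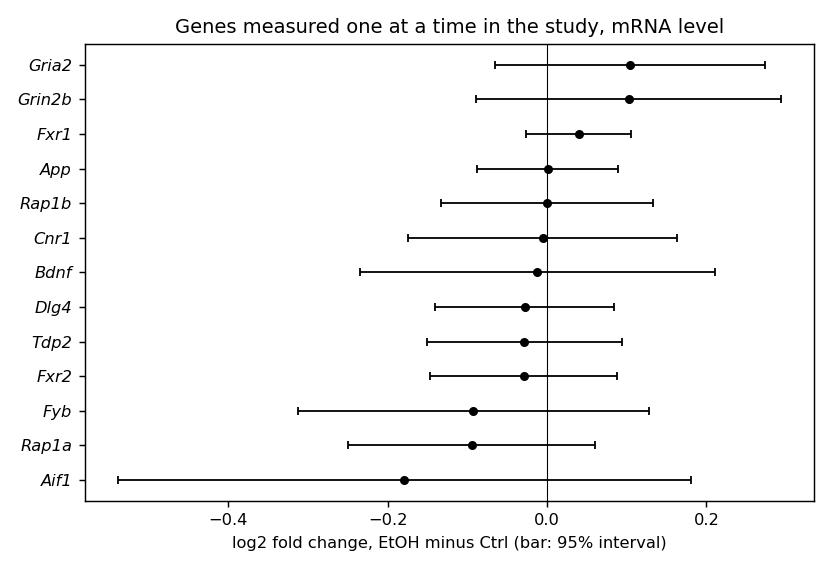
Log2 fold change (EtOH minus Ctrl, x axis) of 13 tested genes that had been assayed singly, with the 95% interval from limma as a bar. All 13 intervals include 0, and they are narrowest for Fxr1 (-0.03 to 0.11) and widest for Aif1 (-0.54 to 0.18).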

How the data were processed

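RNA-seq libraries of hippocampus from 9 Ctrl and 7 EtOH mice were analysed, and 7 EtOH-UA libraries entered only 1 alternative fit. The authors deposited 1 table of FPKM values per gene and mouse, with no counts. The study's methods name poly(A) RNA, 100-bp paired reads on BGISEQ-500 and Bowtie2 with RSEM on mm10, while the submitters' processing notes name HISAT2 2.1.0, Bowtie2 2.2.5, RSEM 1.2.8, StringTie and DESeq. The study's list of resources gives the same Bowtie2 and RSEM versions as these notes and its methods give others, so the version behind the table is uncertain. Because the deposited FPKM values are not counts, the count test of the study was not used. The table's columns give the group and a mouse number, and mice are numbered here in column order.

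From these values, genes averaging 1 FPKM or more over the 16 mice were put on the log2(FPKM + 0.1) scale and fitted with limma 3.58.1 in R 4.3.3 (empirical Bayes with an intensity trend, Benjamini-Hochberg adjustment over 12907 genes). Single genes were also tested with an exact two-sided permutation test of the difference of mean log2 values over 11440 groupings, without adjustment for the number of genes. Mice were housed several to a cage, and which of them shared a cage or litter is not given in the sources used here, so p-values measure the spread between these mice. Named genes were the 12 with the smallest p and the 5 with the largest fold change at an unadjusted p under 0.05 in each direction, members of the lists at that threshold, the most abundant members, and a selection of the genes the study measured singly. Some genes that this rule names are not reported here. Foxj1, Dnah9, Bhlhe40, Dcx, Rora and the core clock genes were named after their values were seen. The gene lists and members were chosen with earlier results of these data known. Promoter windows and gene positions were RefSeq's on GRCm38.p6. Fits were tested on simulated data, and figures were drawn with matplotlib 3.10.9 in Python 3.11.15.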

Additional observations from a re-analysis of the deposited data

Results flagged for a closer look

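Of 158 groups of values examined, 11 held a mouse apart from the others, judged by the gap to its neighbour as a share of the group's range (above 0.568 for 7 mice and 0.493 for 9), and chance gives about 1 in 20. Clic6 in EtOH mouse 7 was at 27.05 FPKM, next to 7.34 FPKM (gap share 0.644), and Otx2 in the same mouse at 10.43, next to 2.65 FPKM (0.658). Iqcg stood apart in EtOH mouse 7 at 2.07, next to 1.6 FPKM (0.595), and in Ctrl mouse 3 at 1.71, next to 1.06 FPKM (0.553). Il18 was lowest in EtOH mouse 7 at 11.57, next to 14 FPKM (0.617), and Tmem39a in EtOH mouse 4 at 3.84, next to 4.23 FPKM (0.609). Igfbp6 was lowest in Ctrl mouse 3 at 3.38, next to 6.07 FPKM (0.575). Cox7b was highest in EtOH mouse 3 at 132.2, next to 108.5 FPKM (0.691), and the score of complexes II to V in that mouse was 0.26, next to 0.01 (0.568). App was highest in Ctrl mouse 2 at 551.1, next to 512.7 FPKM (0.502), and Il10 was above 0 in Ctrl mouse 4 alone, at 0.04 FPKM (1).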

How the results depend on the processing

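No paired analysis was possible because the columns carry mouse numbers and no replicate numbers. The count of genes past an adjusted p of 0.05 by limma was 0 except for 1, Cd24a, with array quality weights, with summed FPKM or with the ribosomal protein score as a covariate. The count at an unadjusted p under 0.05 was 355, against 611 with a filter at 0.1 FPKM, 177 with a filter at 5 FPKM, 763 with no filter, 1176 with array quality weights, 216 with the choroid plexus score as a covariate, and 197 to 1317 when 1 mouse was left out. Of these, the share that was higher was 50.7%, against 61.1%, 31.1% and 61.3% with the 3 filters, 38.0% with quantile normalization, and 61.6% and 67.7% with the complex I and ependymal scores. Genes without overlap numbered 0 of 12907, against 8 of 12907 without the 4 libraries of high summed FPKM (3 Ctrl and 1 EtOH). They numbered 1 with the filter at 0.1 FPKM, 1 with quantile normalization and 0 to 3 when 1 mouse was left out. With fewer mice more genes are without overlap by chance, so these counts do not show that a difference was uncovered. The ependymal score, summed FPKM and ribosomal score as covariates and the fit without 4 libraries were chosen after seeing the data. The ependymal score differs between the groups, so that this covariate takes up part of any group difference, and by construction the median of its own list became 0.00093. With it the medians were -0.29 for the choroid plexus, 0.12 for complex I, 0.11 for complexes II to V, 0.14 for ribosomal proteins and 0.0072 for dopamine and adenosine genes. Log2 fold changes then turned for Ttr (-0.33), Ecrg4 (-0.26), Clic6 (-0.31), Calml4 (-0.30), Otx2 (-0.52), Folr1 (-0.29), Zic2 (-0.11), Ccdc153 (-0.0040), Cox7b (0.037), Rps29 (0.0066), Rpl36a (0.051), App (-0.013), Dlg4 (0.026), Gria2 (-0.073), Cnr1 (0.021), Fxr2 (0.058), Grin2b (-0.15) and Aif1 (0.068). The other reversals were of singly assayed genes near 0. Cnr1 was 0.0098 with upper-quartile scaling, 0.022 with quantile normalization, 0.038 with array quality weights, 0.023 with the choroid plexus score and 0.018 without the 4 libraries. Dlg4 was 0.030 with quantile normalization, 0.011 with the complex I score, 0.0068 with summed FPKM and 0.011 with the ribosomal score. Under the last 3 of these Fxr2 was 0.023, 0.012 and 0.019. Fxr2 was 0.0069 with the choroid plexus score, and Rap1b was -0.0023 with the complex I and -0.0020 with the ribosomal score. Bdnf was 0.0031 with upper-quartile scaling and 0.038 with the striatal score, and App -0.0081 with the striatal score and -0.015 without the 4 libraries. With 1 mouse left out App ran from -0.013 to 0.019, Rap1b from -0.030 to 0.029, Cnr1 from -0.040 to 0.039, Bdnf from -0.084 to 0.031 and Fxr2 from -0.070 to 0.0020. The cause of these changes was not tested. None of the other named genes that were refitted changed direction under the alternatives run. Most list medians lie near 0 and changed sign under at least 1 alternative, the clock genes among them, while the ependymal median stayed above 0 under each that gave one without its own score as a covariate. The filter at 5 FPKM left 1 ependymal gene, Rarres2, and no median. FPKM near 1 rests on few fragments, and the table holds no counts from which an error per value could be set.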
